A study of Mus musculus with 4 samples.

Results

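Mest, Copg2 and Cep41 around the imprinted gene Mest, and Peg10, Sgce and Casd1 around the imprinted gene Peg10, are 6 of the 24594 genes in a table of RNA-seq read counts from mouse embryonic stem cells (mESCs). Both gene groups lie on chromosome 6. They were selected by name and position after the counts of the WT and knockout libraries had been seen, with Mest among the genes that differed most between genotypes. Their differences between genotypes are therefore given as measured values with their error and without p-values, and where they are counted against a threshold, the count is a description that the choice of genes fixes in part.

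The study compared poly(A) RNA of untreated mESCs of the 129S6/SvEvTac line with 2 wild-type (WT) libraries and 2 libraries of a Snf2l knockout. Snf2l (Smarca1 in the annotation) encodes SNF2L, a catalytic subunit of the imitation switch (ISWI) family of chromatin remodelers. Per the methods, mutants were made with CRISPR–Cas9 from the parental line, with transient puromycin selection and use of a single clone, so an effect of the genotype and a property of the clone cannot be told apart. The labels put all 4 libraries in 1 batch and do not say that duplicates came from separate cultures, and the methods describe RNA-seq replicates in general as independent, so the errors describe the spread between these libraries. The libraries held between 13771642 and 15608803 counts, and levels are given as counts per 1000000 of the scaled library size (CPM). The level of Smarca1 itself fell from 43.2 ± 3.33 CPM (620 and 626 counts) to 2.19 ± 0.241 CPM (37 and 31 counts, SD, n = 2 each), with an adjusted p of 2.65e-10 in edgeR's quasi-likelihood test, which gave all adjusted p-values below. Of 9 markers of mESCs all were detected, and their summed level was 4800 to 5020 CPM in WT, against 5190 to 5210 CPM in the knockout, although Zfp42 fell (log2 fold change -0.60, adjusted p = 0.00038) and Klf4 rose (0.34, adjusted p = 0.0359), both named after their values were seen.

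Genomic imprinting is the expression of a gene mainly from the chromosome inherited from one parent. It depends on DNA methylation that is set at control regions in the germ line and kept through later divisions by factors such as ZFP57, which binds a methylated motif, and its partner TRIM28. Mest and Peg10 are expressed from the paternal chromosome, and in each case the promoter is methylated on the maternal one. The counts do not separate the parental alleles, so they give the summed output of both. In libraries of many cells, fewer cells expressing a gene and less RNA per expressing cell cannot be told apart either.

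The Mest domain spans 243359 bp of mm10 (chr6:30653457-30896815, positions from RefSeq for GRCm38.p6, counted from 1). Mest (Entrez gene 17294, chr6:30733506-30748466, plus strand) codes for an alpha/beta hydrolase of the endoplasmic reticulum. Copg2 (Entrez gene 54160, chr6:30747554-30896815, minus strand) codes for a gamma subunit of the COPI vesicle coat, and its 3′ end overlaps the 3′ end of Mest by 913 bp. Cep41 (Entrez gene 83922, chr6:30653457-30710517, minus strand) codes for a centrosomal protein that acts in cilia. The 5′ end of its RefSeq gene lies 22989 bp from the first start of Mest. The Cep41 start used for the promoter window below lies further inside the gene, at chr6:30693749.

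The Peg10 domain lies 25.9 Mb away and spans 159607 bp (chr6:4600911-4760517). Peg10 (Entrez gene 170676, chr6:4747306-4760517, plus strand) is derived from a retrotransposon and is needed for the placenta. Sgce (Entrez gene 20392, chr6:4674350-4747204, minus strand) codes for epsilon-sarcoglycan, a membrane protein, and is also expressed from the paternal chromosome. Peg10 and Sgce are arranged head to head, with starts 102 bp apart. Casd1 (Entrez gene 213819, chr6:4600911-4643355, plus strand) codes for a sialic acid O-acetyltransferase of the Golgi and ends 30995 bp from the 3′ end of Sgce.

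Mest has an upstream start and a start at a promoter rich in CpG, and the gene-level counts combine transcripts from both. The bases before these starts are shown because Mest had the largest difference between genotypes of the 6 genes. They are from RefSeq for GRCm38.p6, plus strand, with every CpG in capitals. The upstream stretch is chr6:30733256-30733453 and the CpG-rich stretch is chr6:30737800-30738049. The upstream stretch stops short of its start, at the edge of an annotated exon, whereas the CpG-rich stretch runs up to its start, so their CpG counts cover different positions.
Mest upstream promoter: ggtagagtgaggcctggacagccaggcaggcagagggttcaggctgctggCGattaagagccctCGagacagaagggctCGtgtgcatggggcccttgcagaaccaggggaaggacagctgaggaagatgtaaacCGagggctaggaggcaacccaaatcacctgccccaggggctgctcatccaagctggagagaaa
Mest CpG-rich promoter: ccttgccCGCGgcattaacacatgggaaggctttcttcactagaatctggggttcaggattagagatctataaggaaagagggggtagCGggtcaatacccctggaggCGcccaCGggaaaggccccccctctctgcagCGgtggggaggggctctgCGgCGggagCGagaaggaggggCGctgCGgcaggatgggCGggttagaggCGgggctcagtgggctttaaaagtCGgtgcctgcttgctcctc
The upstream stretch of 198 bases held 4 CpGs, and the CpG-rich stretch of 250 bases held 14. The hexamer TGCCGC, whose methylated form ZFP57 recognizes, was searched on both strands (GCGGCA on the other strand). It had 2 matches in the CpG-rich stretch and 0 in the upstream one.

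Over windows of 300 bases, 250 before and 50 after a start, the CpG-rich promoter of Mest had 17 CpGs and a GC content of 62.7%, and the upstream promoter had 8 CpGs and 59.3%. The window of Copg2 had 25 CpGs, that of Cep41 had 19 and that of the first start of Casd1 had 23. The median over all 32851 RefSeq promoter windows was 7 CpGs, which the windows of Copg2, Cep41, the first start of Casd1 and both starts of Mest exceeded. A second Casd1 start lay below it, with 5 CpGs and 0 matches to the hexamer. The hexamer had 2 matches at the CpG-rich start of Mest, 1 at Copg2, 1 at the first start of Casd1 and 0 at Cep41, and 11.6% of all windows held it. Such a match describes the letters of the window and does not show that the factor binds there. Peg10 and Sgce had no entry in the table of promoter windows.

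Mest also carries the microRNA gene Mir335 (chr6:30741299-30741396) between its CpG-rich start and its 3′ end. Its mature microRNAs are shown because they are the other named product of the Mest transcription unit. The seed, bases 2 to 8 from the 5′ end, is in capitals, and the sequences are from RefSeq.
mmu-miR-335-5p: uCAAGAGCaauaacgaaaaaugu
mmu-miR-335-3p: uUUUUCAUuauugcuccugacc
The seeds of the 5p and 3p arms differ, and Mir335 had 0 counts in all 4 libraries. A count of 0 allows up to 3 counts in a library, which is between 0.192 and 0.218 CPM, and poly(A) libraries are not made to hold mature microRNAs. The level of miR-335 was therefore not detectable here.

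Mest was the domain gene with the largest difference between genotypes. The WT libraries gave 2532 and 2704 counts of Mest, and the knockout libraries 173 and 192. Both knockout libraries were far below both WT libraries, and the duplicates of each genotype were close to each other. As levels these were 181 ± 6.78 CPM and 11.8 ± 1.04 CPM (SD over 2 libraries of a genotype, as for all levels that follow), with 6.49% remaining in the knockout. On the log2 scale the fold change was -3.95 (SE 0.113), and 5 of the 13840 genes tested had a more negative value. Counts for Mest remained in the knockout, at a level above what a count of 0 allows. Part of its length is shared with Copg2, as described below, so these counts need not all be reads of Mest. The origin of the remaining counts was not tested.

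Copg2 gave 2241 and 2427 counts in the WT duplicates, against 1495 and 1560 in the knockout duplicates. Its mean level was 161 ± 4.44 CPM for WT and 98.4 ± 4.40 CPM for the knockout, with 60.9% remaining. The 4 libraries again separated by genotype, with a log2 fold change of -0.71 (SE 0.090). The level dropped by 63.1 CPM for Copg2, and for Mest it dropped by 169 CPM.

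The overlap of the 3′ ends bears on the values of both genes. Mest and Copg2 share 912 exon bases on opposite strands, which is 23.5% of the length deposited for Mest and 17.8% of that for Copg2. Whether reads were counted by strand is not stated in the sources used here. In the table, the overlapping genes Snrpn and Snurf, both on the same strand, had nearly the same counts (3558 each in the first WT library), so a read could be counted for more than 1 gene. Of 13 small RNA genes that lie inside an exon of a gene on the other strand with over 2000 counts, 12 had at least 10 counts, 6 of them microRNA genes inside Nlrp12, and the origin of those reads was not tested. These genes were chosen after their values were seen. How much of the difference of Copg2 came from reads of Mest in the shared segment was not tested. Nor was it tested how many of the knockout counts of Mest came from reads of Copg2 there. The levels and ratios of Mest in the knockout carry this limit.

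For Cep41, on the other side of Mest, the WT counts were 312 and 340 and the knockout counts 329 and 246. Mean levels were 22.6 ± 0.521 CPM for WT and 18.5 ± 3.51 CPM for the knockout. The first knockout library (21 CPM) was close to the WT libraries (22.2 and 22.9 CPM) and the second (16.0 CPM) was lower. The log2 fold change was -0.29 (SE 0.137), and it was -0.49 without the first knockout library and -0.10 without the second.

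Peg10 was the only one of the 6 genes with a higher level in the knockout. Its counts were 3931 and 3608 for WT, and they were 5727 and 4843 for the knockout. These are levels of 289 and 235 CPM against 365 and 315 CPM, so the higher WT library and the lower knockout library were close. The means were 262 ± 37.7 CPM and 340 ± 35.3 CPM, and the log2 fold change was 0.38 (SE 0.107). The duplicates of Peg10 differed by 0.29 on the log2 scale in WT and by 0.21 in the knockout, against 0.38 between genotypes. In both genotypes the first library was the higher.

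Sgce, across the shared start region from Peg10, was weakly expressed, with 35 and 41 WT counts and 32 and 42 knockout counts. The genotypes overlapped, at 2.62 ± 0.0734 CPM (WT) and 2.39 ± 0.490 CPM (knockout). The log2 fold change of Sgce was -0.14 (SE 0.250). With these counts its error was wider than that of Peg10, and a difference of the size seen for Peg10 was not detectable. Casd1, with 236 and 242 WT counts and 246 and 259 knockout counts, also overlapped between genotypes as a level. Its WT mean was 16.6 ± 1.09 CPM, its knockout mean was 16.3 ± 0.830 CPM, and the log2 fold change was -0.02 (SE 0.128).

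**Figure D1:**
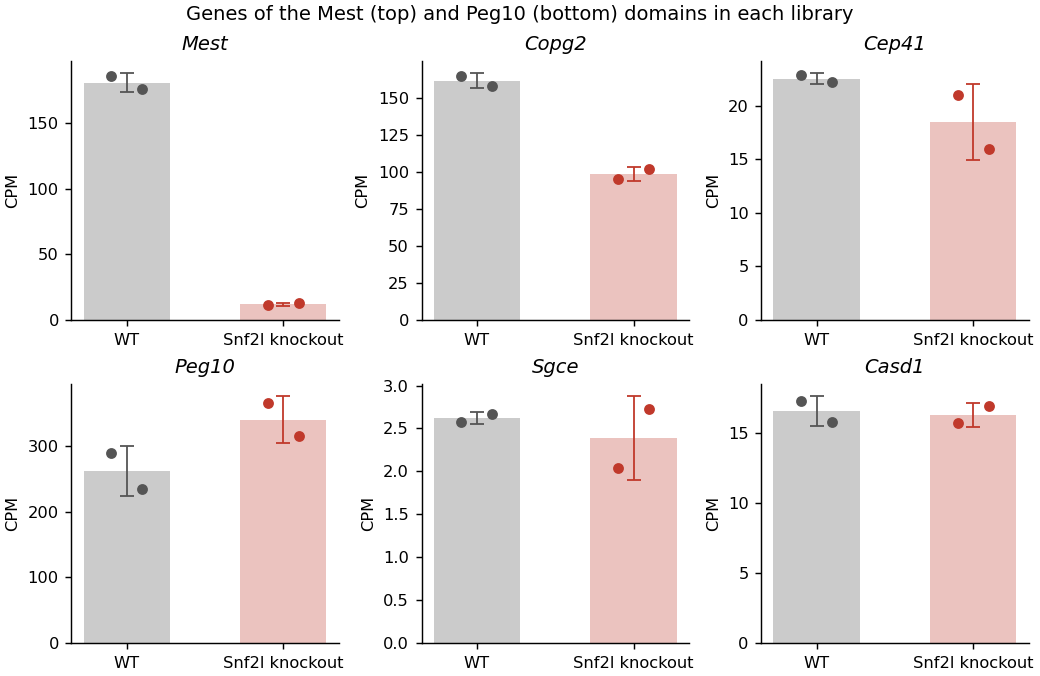
Level of the 3 Mest domain genes (top row) and the 3 Peg10 domain genes (bottom row) as CPM, each panel with its own linear axis from 0. Points are the 4 libraries, bars are means of 2 libraries and error bars are SD. For Mest the knockout libraries lie at 11.0 and 12.5 CPM against 186 and 176 CPM in WT, whereas for Sgce and Casd1 the genotypes overlap.

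Counted over the 6 genes, the knockout pair lay wholly below the WT pair for Mest, Copg2 and Cep41, and wholly above it for Peg10. Among all 13840 genes tested, 25.3% had both knockout libraries below and 25.2% had both above. Under the threshold of the study (a log2 fold change beyond 1 in either direction, at an adjusted p under 0.01), 1 of the 6 genes was called, Mest, with a lower level, against 0.419% of all genes tested called lower and 0.571% called higher. At an adjusted p under 0.05, 2 genes were called lower (Mest and Copg2) and 1 higher (Peg10), against 5.21% and 4.0% of all genes. Peg10 was not among them without the second WT library (log2 fold change 0.23) or without the first knockout library (0.27), and Cep41 was among them without the first knockout library. The genes were chosen with these values in view, so nothing is read from the counts. The median log2 fold change was -0.21 over the 6 genes and 0 over all genes tested.

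**Figure D2:**
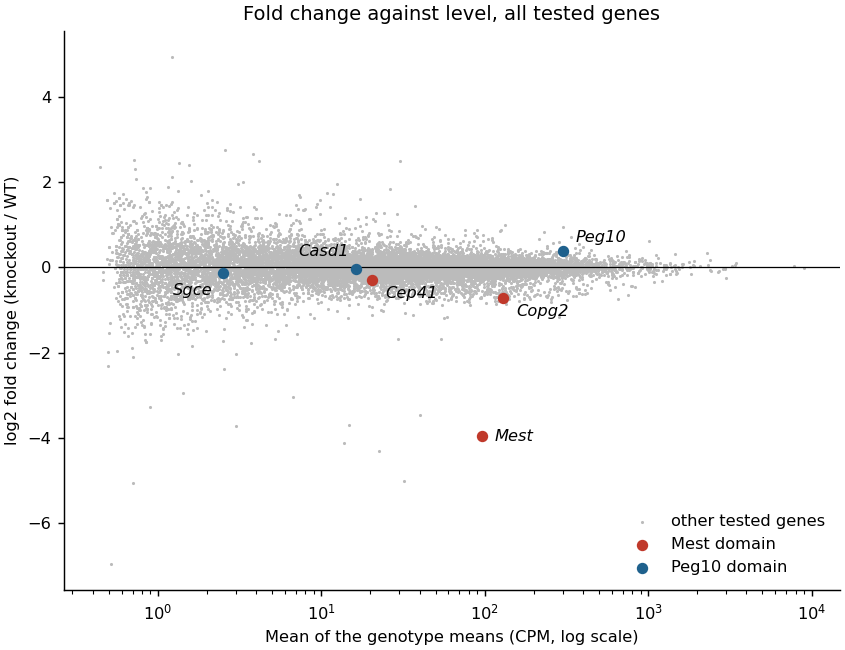
Log2 fold change (knockout over WT) against the mean of the genotype means in CPM (log axis) for all 13840 genes tested, with the Mest domain genes in red and the Peg10 domain genes in blue. Mest lies at -3.95, apart from the other genes of its level, and the other 5 genes lie between -0.71 and 0.38.

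For levels to be compared between genes, CPM were divided by the gene length in kb given in the table. In WT, Mest was at 46.6 ± 1.74, Peg10 at 39.3 ± 5.66 and Copg2 at 31.5 ± 0.867 CPM per kb. These were the 3 abundant genes, and the difference between Mest and Peg10 was of the order of the spread of Peg10 (43.3 and 35.3 CPM per kb). Cep41 was at 4.53 ± 0.105, Casd1 at 4.10 ± 0.271 and Sgce at 0.795 ± 0.0223 CPM per kb. Cep41 and Casd1 did not overlap, but the higher Casd1 library (4.29) was near the lower Cep41 library (4.46). The length deposited for Sgce, 3298 bp, is shorter than the 10612 bp of exons in the GENCODE annotation, so its level per kb rests on the annotation used. By CPM alone, Peg10 (262) was above Mest (181) in WT, so the order of these 2 genes depends on the correction for length.

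In the knockout, Mest passed from the top of this order to the fifth place. Peg10 was at 51.0 ± 5.29, Copg2 at 19.2 ± 0.859, Casd1 at 4.03 ± 0.206, Cep41 at 3.71 ± 0.705, Mest at 3.03 ± 0.267 and Sgce at 0.724 ± 0.149 CPM per kb. Casd1 and Cep41 overlapped, and the lower Cep41 library (3.22) was next to the higher Mest library (3.21). Mest, one of the abundant genes in WT, was thus next to Cep41 and below Casd1 in the knockout.

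Ratios of 2 genes within a library do not depend on the scaling between libraries. Mest to Copg2 per kb was 1.49 and 1.47 in WT, against 0.152 and 0.162 in the knockout. Mest to Cep41 was 10.4 and 10.2 in WT, against 0.674 and 1.0 in the knockout. Within the Mest domain, Mest was therefore lower relative to both neighbours in each knockout library. The ratio of Peg10 to Sgce, the genes that share a start region, was 55.6 and 43.5 in WT, against 88.5 and 57.0 in the knockout, where the higher WT and lower knockout values nearly met. Peg10 to Casd1 was 10.1 and 9.03 in WT, against 14.1 and 11.3 in the knockout. Between the domains, the ratio of Peg10 to Mest was 0.842 ± 0.0900 in WT and 17.0 ± 3.25 in the knockout.

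The genes on either side of the domains were chosen by position, as all genes that reach into 1 Mb beyond each span. Of 49 such genes, 20 passed the filter on low counts, and 10 had a lower and 10 a higher level in the knockout. Of the 20, 3 had an unadjusted p under 0.05 in edgeR's quasi-likelihood test, against 3066 of all 13840 genes tested. These 3 include Smo and Ube2h, named after their values were seen. DESeq2 called 0 of the neighbours, with 1 at an unadjusted p under 0.05. Whether the counts of the neighbours differ from those of all genes was not tested. None of the 20 passed an adjusted p of 0.05 in edgeR's test, against 1274 of all genes tested. Without the first knockout library, 2 passed it (Ppp1r9a and Smo). Around the Mest domain the median log2 fold change of 12 genes was -0.04, and the smallest adjusted p was 0.0846. Around the Peg10 domain it was 0.16 over 8 genes, with a range from -0.26 to 0.54, and the smallest adjusted p was 0.267. Over 629 tested genes of chromosome 6 outside the domains, the median was 0.02.

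Beyond Copg2, Klf14, an imprinted transcription factor gene under the control of the Mest region, was not tested, with WT counts of 0 and 1 and knockout counts of 4 and 4. Several neighbours of Peg10 are known for imprinted expression in some tissues. Ppp1r9a, which codes for the actin-binding neurabin, gave 514 and 523 counts for WT and 584 and 417 for the knockout, with a log2 fold change of -0.16 (SE 0.136, adjusted p = 0.553). The paraoxonase genes Pon2 (0.14, SE 0.156, adjusted p = 0.670) and Pon3 (0.54, SE 0.354, adjusted p = 0.412) did not pass the test either. Asb4 was weakly expressed, with WT counts of 12 and 10 and knockout counts of 16 and 15, and had a log2 fold change of 0.39 (SE 0.387, adjusted p = 0.622). Calcr, the calcitonin receptor gene, had between 7 and 10 counts in each library, and Tfpi2 had 1 count in all 4 together. At these counts a difference in Asb4, Calcr, Tfpi2 or Klf14 as large as that of Peg10 was not detectable.

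**Figure D3:**
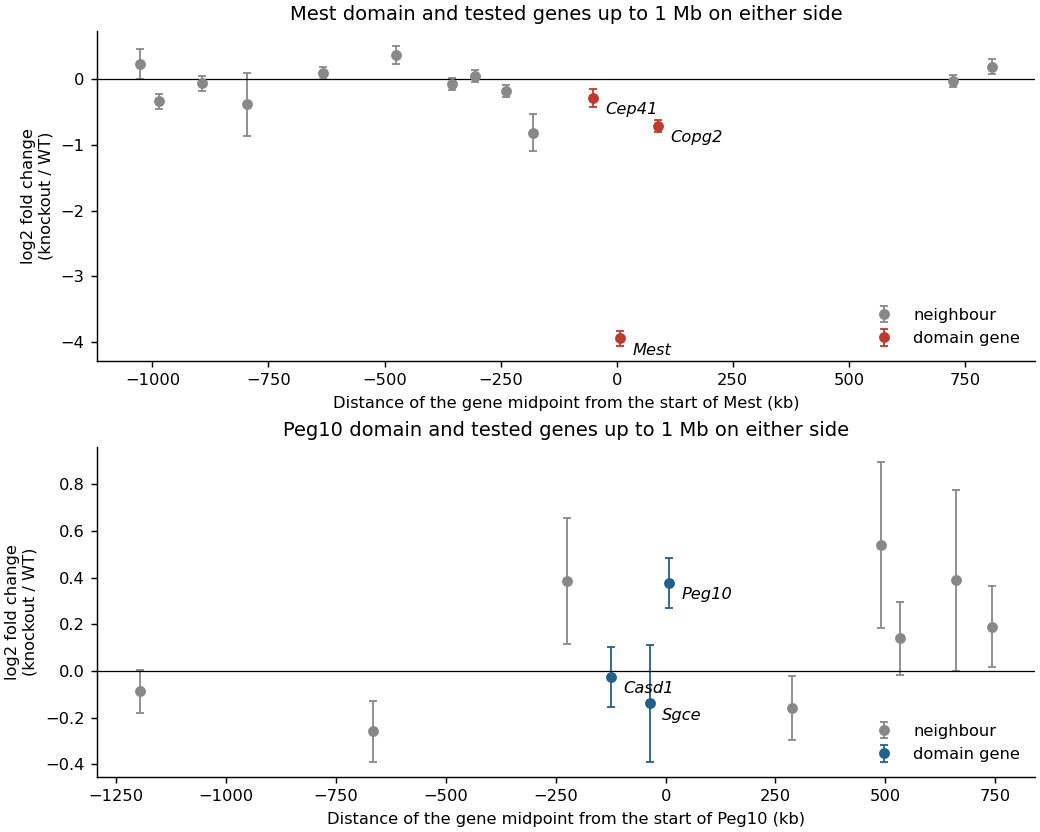
Log2 fold change (knockout over WT, points, with SE as error bars) of the domain genes and of the tested genes up to 1 Mb on either side, against the distance in kb of the gene midpoint from the first start of Mest (top) or the start of Peg10 (bottom). Mest stands at -3.95 between Cep41 and Copg2, and no neighbour is as low as Mest.

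Imprinted genes of other domains were compared through lists written with earlier results of these data known. Of 24 paternally expressed genes, 21 were tested, and their log2 fold changes ranged from -0.41 to 1.83 with a median of 0.07. By the threshold of the study 1 of them was called, against 0.571% of all genes tested called higher. This was Igf2, a fetal growth factor gene, which rose from 11.5 ± 0.553 to 40.9 ± 4.64 CPM (log2 fold change 1.83, SE 0.127, adjusted p = 9.20e-07). At an adjusted p under 0.05, 3 rose (Igf2, Peg12 and Rtl1) and 0 fell, against 553 higher and 721 lower of all 13840 genes tested. Rtl1 overlaps antisense transcripts, which cannot be told apart from it without strand, and it and Peg12 are named after their values were seen. Igf2 alone of these 3 passed with DESeq2 and without the second knockout library. Neither Peg12 nor Rtl1 passed without the first WT library, and Rtl1 did not without the second. Zdbf2, also named after its values were seen, passed with a lower level without the second WT library or without the first knockout library.

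Of 13 maternally expressed genes, 12 were tested, with a median of -0.10 and a range from -3.46 to 0.73. In this list 4 genes were called, all with lower levels, against 0.419% of all genes tested called lower, and 1 of them, Slc22a18, was not called with DESeq2, with a filter of at least 1 count, with the first or the second WT library left out, or without the first knockout library. The noncoding RNA gene H19, the neighbour of Igf2, fell from 73.3 ± 0.602 to 6.66 ± 0.585 CPM (log2 fold change -3.46, SE 0.122, adjusted p = 1.88e-10), a change near that of Mest in size. The growth-restraining genes Cdkn1c (-1.69, SE 0.125) and Phlda2 (-1.68, SE 0.120) and the transporter gene Slc22a18 (-1.55, SE 0.317) fell as well, with adjusted p of 1.6e-06, 1.13e-06 and 0.0057. They lie close together on chromosome 7. At an adjusted p under 0.05, 3 further genes of the list rose, against 553 of all 13840 genes tested. They were the noncoding RNA genes Meg3, Rian and Mirg of chromosome 12, named after their values were seen.

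The 14 genes listed for setting, keeping or removing imprints were all tested and 0 were called by the threshold of the study, in edgeR as in DESeq2, while 4 had an unadjusted p under 0.05 and 1 was called without the second knockout library (Dppa3). Of all 13840 genes tested, 0.419% were called lower and 0.571% higher by that threshold, and 3066 had an unadjusted p under 0.05. Whether the counts of this list differ from those of all genes was not tested. At an adjusted p under 0.05, 1 fell and 2 rose, against 721 lower and 553 higher of all genes tested. These 3 are named after their values were seen. Dppa3, which protects methylation in the early embryo, fell from 19.1 ± 2.21 to 10.4 ± 1.61 CPM (log2 fold change -0.88, SE 0.148, adjusted p = 0.00143). The de novo methyltransferase gene Dnmt3a rose from 306 ± 2.19 to 448 ± 5.59 CPM (0.55, SE 0.082, adjusted p = 0.000681). Zfp57 rose from 389 ± 2.73 to 471 ± 15.0 CPM (0.28, SE 0.082, adjusted p = 0.0484), a call at the edge of the threshold that 3 of the 4 fits without 1 library did not make. Whether any of these differences bears on Mest or Peg10 was not tested.

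**Figure D4:**
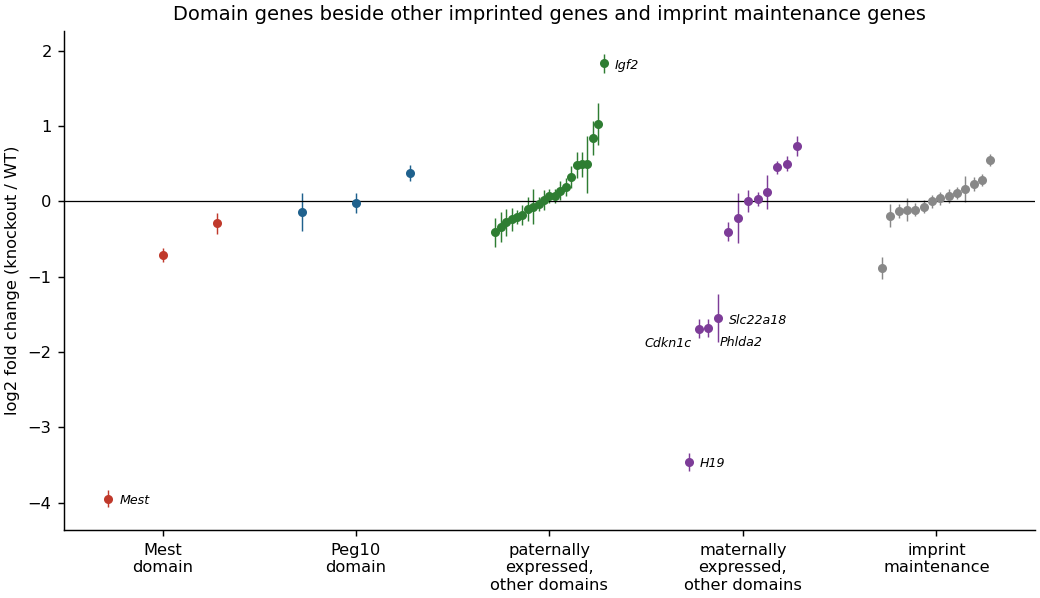
Log2 fold change (knockout over WT, points, with SE as error bars) of the genes of the Mest and Peg10 domains, of tested imprinted genes of other domains by parental origin of expression, and of imprint maintenance genes, in order of value within each group. Mest (-3.95) and H19 (-3.46) have the lowest values, and Igf2 (1.83) has the highest.

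Mest is also known as a gene of mesoderm and fibroblasts and Peg10 as a gene of trophoblast, and markers of these cells were examined beside them. The summed level of 6 trophoblast markers was 73.8 to 82.8 CPM in WT, against 98.5 to 99.7 CPM in the mutant. Most of that difference was in Krt8, a keratin gene, which rose from 13.5 to 28.9 CPM (log2 fold change 1.10, SE 0.121, adjusted p = 7.37e-05). By the threshold of the study Krt8 was called higher, against 0.571% of all genes tested. Of the 5 trophoblast markers tested, 4 had a higher and 1 a lower level in the knockout. Hand1 rose from 1.18 to 2.77 CPM (1.23, SE 0.283, adjusted p = 0.0121). Cdx2, at 0.408 and 0.87 CPM, had a log2 fold change of 1.05 (SE 0.467, adjusted p = 0.199). Tfap2c, the most abundant of the list, had one of 0.09 (adjusted p = 0.688) and Eomes one of -0.21 (adjusted p = 0.718). Elf5, a defining transcription factor gene, had 1 count in each library. For 5 mesoderm markers the sums were 2.48 to 2.72 CPM in WT, against 4.55 to 5.23 CPM in the knockout. The receptor gene Kdr, from 1.18 to 3.41 CPM, made up most of that difference. It was the only mesoderm marker called (1.53, SE 0.291, adjusted p = 0.00343), against 0.571% of all genes tested called higher. Of the 5 mesoderm markers, 2 were tested. The defining mesoderm genes T (0.241 and 0.258 CPM), Mixl1 (0.836 and 0.840 CPM) and Tbx6 (0.343 and 0.322 CPM) were at like low levels in both genotypes, and Mesp1 had 0 counts in WT and 1 in each knockout library. The markers without a call in these lists are named after their values were seen.

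For 7 fibroblast markers the sums were 11.3 to 13.4 CPM in WT, against 25.0 to 25.8 CPM in the knockout, with the collagen genes Col1a1 (1.41, SE 0.162, adjusted p = 9.18e-05) and Col3a1 (2.44, SE 0.407, adjusted p = 0.00137) called higher and Lum at 0 in all libraries. Primitive endoderm markers, 5 genes, summed to 7.44 to 8.96 CPM in WT, against 14.7 to 15.7 CPM in the knockout. Pdgfra, a growth factor receptor gene, was called higher among them (1.33, SE 0.256, adjusted p = 0.00373), against 0.571% of all genes tested. All 5 were tested and had a higher level in the knockout. Gata6 (1.23, adjusted p = 0.0236), Gata4 (0.75, adjusted p = 0.0276), Sox17 (0.92, adjusted p = 0.139) and Sox7 (0.34, adjusted p = 0.577) were not called. In these lists, too, the markers without a call are named after their values were seen. The part of cells of all these types in the levels of Mest and Peg10 was not tested.

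The genes whose pattern over the 4 libraries was most like that of Mest were found by the Euclidean distance of log2 CPM centered on each gene's mean. The nearest 5 were Uty at a distance of 0.31, Ddx3y at 0.39, Smarca1 at 0.41, H19 at 0.56 and Uba1y at 0.73. Uty, Ddx3y and Uba1y lie on chromosome Y, and their log2 fold changes were -4.12, -3.69 and -3.71. Counts remained for them too, at 1.48, 2.12 and 0.42 CPM in the knockout, against 26, 27.6 and 5.58 CPM in WT. The origin of these remaining counts was not tested. With 2 libraries a genotype, any gene with a large and even fall comes close in this measure. Within a genotype, the duplicates of Mest differed by 0.08 on the log2 scale in WT and by 0.18 in the knockout.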

How the data were processed

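Poly(A) RNA-seq libraries of WT and Snf2l knockout mESCs, 2 of each, were analysed from the table of read counts per gene that the authors deposited. Per the methods, the authors aligned reads to mm10 with QuasR (spliced alignment with HISAT2) and quantified UCSC Known Genes, and the submitters' processing notes also name bcl2fastq 2.17. The deposited counts are whole numbers and were not normalized, and the deposited table also gives a gene length in bp, used here for levels per kb. The labels name a stranded mRNA kit and the methods another TruSeq kit, and the strand setting of the counting is not given in the sources used here. Of 24594 Entrez genes, 24570 (99.9%) were matched to RefSeq for GRCm38, the assembly of mm10.

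The fit used edgeR 4.0.16 under R 4.3.3, with filterByExpr at a minimum count of 10, TMM factors (0.989 to 1.01), and glmQLFit with glmQLFTest in their legacy form. Genotype was the only term, as the labels give 1 batch, and tests were two-sided with Benjamini-Hochberg adjustment over 13840 genes. The threshold was that of the study methods, an adjusted p under 0.01 with an absolute log2 fold change over 1, which called 137 genes, with an adjusted p under 0.05 as a second rule, which 1274 genes passed. Standard errors come from the fold change and the F statistic, and CPM from TMM-scaled library sizes. Total counts of 13771642 to 15608803 limit precision for genes with few counts, and the limit for a count of 0 covers counting error only. On simulated counts, 98% of 198 changed genes tested were recovered with 1 false call.

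The members and all lists were chosen with earlier results of these data known. Genes named are the 6 domain genes, Smarca1, neighbours with an adjusted p under 0.05 or known imprinting, called members of the lists, and the 5 genes nearest to Mest by the Euclidean distance of log2 CPM with a prior count of 2. A neighbour of Mest is not reported here by name. Alternatives were RLE scaling, DESeq2 1.42.0, a filter of at least 1 count, the edgeR 4 form of the quasi-likelihood fit, a replicate block, levels without gene length, and each library left out in turn.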

Additional observations from a re-analysis of the deposited data

How the results depend on the processing

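The domain genes were chosen with these libraries in view, so their calls under the alternatives are no sign of stability and are given as a description. With 1 library left out, the log2 fold change ranged from -4.04 to -3.86 for Mest and from -0.76 to -0.67 for Copg2. Peg10 did not pass an adjusted p of 0.05 with a filter of at least 1 count, without WT replicate 2 (0.23) or without knockout replicate 1 (0.27), and it reached 0.53 without WT replicate 1. Cep41 passed it with the replicate block and without knockout replicate 1 and ranged from -0.49 to -0.10 with 1 library left out. Sgce ranged from -0.36 to 0.06 and Casd1 from -0.09 to 0.04, so both lay on either side of 0. The number of genes called, 137, was 81 with DESeq2, all of them among the 137, and 223 with the replicate block, which included all 137. Genes with an adjusted p under 0.05, 1274, were 750 with DESeq2, 3471 with the replicate block, and 829 (without WT replicate 1) to 1932 (without knockout replicate 1) with 1 library left out. The cause of these differences was not tested. Of the neighbours, 4 passed an adjusted p of 0.05 with the replicate block (among them Smo, Tmem209 and Ube2h), and 0 to 2 did with 1 library left out (Ppp1r9a and Smo without knockout replicate 1). Imprint maintenance genes called ranged from 0 to 1 with 1 library left out, the 1 being Dppa3 without knockout replicate 2. Other imprinted genes called ranged from 4 to 6 over all alternatives. Without gene length, WT levels were 181 CPM for Mest, 161 for Copg2, 22.6 for Cep41, 262 for Peg10, 2.62 for Sgce and 16.6 for Casd1. Over all genes tested, the deviations of same-numbered libraries from their genotype mean had a correlation of 0.196 (2 pairs). This value includes the counting error of genes with few counts, so it does not settle whether the libraries are paired. Peg10 was higher in the first library of each genotype, and its log2 fold change was 0.38 with the replicate block, as in the main fit. Whether the replicate numbers mark a pairing was not tested, and the block is given as an alternative only. With 2 libraries a genotype and 1 clone, small differences such as those of Cep41, Peg10 and Sgce are limited by the spread between duplicates, and where 1 library of a genotype remained it was assumed to vary like the other genotype.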
